A study of Mus musculus with 48 samples.

Results

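Set 4 of the scATAC-seq libraries, named for the number that opens each library name, held 18 of the 48 daughter cells in the series and 9 of its 24 divisions. The cells were chosen by that number alone and by age. Long-term HSCs of mice given as B6.SJL were cultured with cytokines that included SCF and G-CSF, at 50 ng/mL in the sample records, for 40 to 44 h, when they had divided once, and the daughters of each division were separated and sequenced one by one. The 5 aged divisions (4a6, 4a8, 4a10, 4a11 and 4a12) came from mice of 20 to 26 months, and the 4 young divisions (4y1, 4y2, 4y3 and 4y5) from mice of 10 to 12 weeks. No allele or further treatment is recorded for either age. The methods of the study name C57BL/6 mice and a higher cytokine concentration for this assay, and neither source says which mouse a division came from. The daughters of a division were pooled as 1 replicate, so n counts divisions and not animals.

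HSCs maintain the blood by producing both new stem cells and progenitors, and the daughters of a single division can take the same fate or different fates. The small GTPase Cdc42 and other polarity proteins govern how a stem cell distributes its contents before it divides. In the assay, the transposase Tn5 cuts accessible DNA and leaves adapters there, so accessible promoters and enhancers collect insertions, and transcription factors such as PU.1, Runx1 and AP-1 bind within such elements in blood cells.

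Each cell had a list of regions with their pileup, which counts the insertions covering its summit once each insertion is drawn out to 150 bp. All listed regions were used. The 18 lists held 607723 regions on chromosomes 1 to 19, X and Y of mm10 (GRCm38). The label of these libraries as shallow did not hold for division 4y1, whose daughters had 178771 and 182906 regions, 59.5% of all regions of the set. The other 16 cells had 2890 to 39451 regions (median 11466), and of these only 1 to 297 per cell passed a q value of 0.05. Pooled by division, 36648, 43761, 15521, 23539 and 18807 regions were listed in aged divisions 4a6, 4a8, 4a10, 4a11 and 4a12, and 361677, 15482, 46873 and 45415 in young divisions 4y1, 4y2, 4y3 and 4y5. Division 4y1 was 12 times the median of the others, and the other 8 divisions overlapped between ages. Comparisons of the ages over divisions are therefore given with and without 4y1.

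The libraries also shared regions to the base, and this holds for all results below. In aged divisions 92.6% ± 0.752 of the regions (SD, n = 5) had exactly the same start and end as a region in at least 1 other division of the series. The values were 92.6%, 91.9%, 92.5%, 93.8% and 92.0% in 4a6, 4a8, 4a10, 4a11 and 4a12. In the young divisions they were 93.8% in 4y1, 81.3% in 4y2, 85.3% in 4y3 and 87.7% in 4y5 (87.0% ± 5.23, SD, n = 4). Aged divisions were higher by 5.53 percentage points (two-sided exact permutation p = 0.0476), and by 7.80 points without 4y1, where the ages did not overlap (exact p = 0.0179, the smallest that 5 against 3 divisions allow). When any 1 of the other 8 divisions was left out, p was above 0.05 (exact permutation p up to 0.143). The test was chosen after the sharing had been seen. Each share counts places listed in other divisions, so the values of the divisions depend on one another. The p values take them as independent and are a description only. A region of an aged division was listed at the same place in 8 or 9 divisions in the median, itself included, and a region of 4y1, 4y2, 4y3 and 4y5 in 9, 4, 5 and 6.

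Regions of 150 bp with a pileup of 1 mark a single insertion, and 89.6% to 92.2% of those in aged divisions and 78.1% to 91.9% of those in young divisions were listed at the same base elsewhere. When the position was moved by 1 to 20 bp, the mean share in a division was only 0.524% to 0.769%. The highest share at any single shift was 3.25% to 5.08% over the divisions, also far below the share at the same base.

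**Figure D1:**
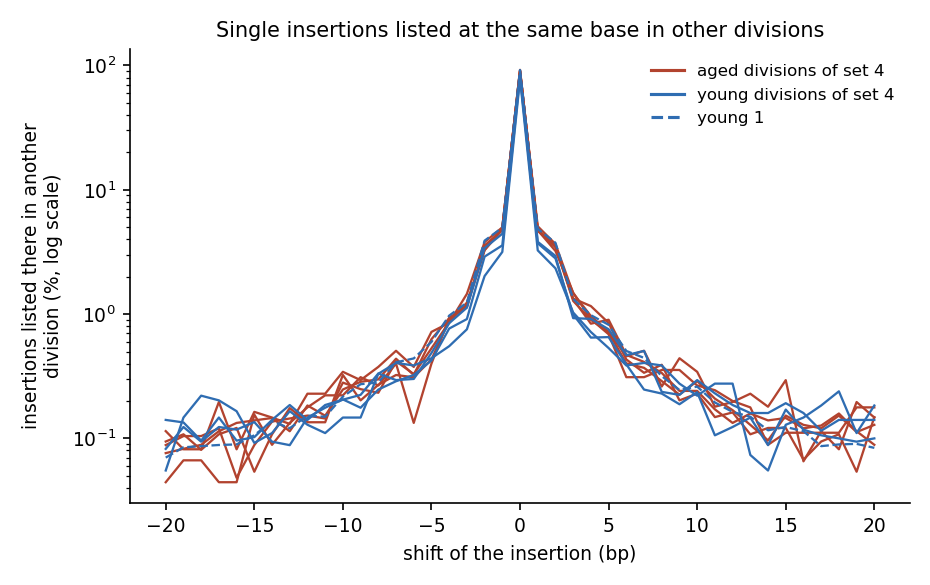
Percent of single insertions (regions of 150 bp with a pileup of 1) of each set 4 division that are listed in another division of the series at a position moved by -20 to 20 bp (y axis on a log scale, 1 line per division). All 9 lines peak at a shift of 0, between 78.1% and 92.2%.

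The sequences below were chosen after the values were seen, because they show such shared places and the letters sought as motifs (capitals). The region at the TSS of Hdac6, a deacetylase of tubulin, is at chrX:7947678-7947965 of GRCm38. It was listed with this start and end in 28 of 48 cells and 20 of 24 divisions, and in set 4 in 7 cells of 4a6, 4a12, 4y1, 4y3 and 4y5, each time with a pileup of 2. The region at the TSS of Acsl1, a long-chain acyl-CoA synthetase, is at chr8:46470950-46471214 and was listed in 5 cells of 4a10, 4a11 and 4a12 and in no cell of another set. The region of Nifk, which encodes a nucleolar protein, is at chr1:118322341-118322490 and was listed in 4 cells, 1 each of 4y1, 4y2, 4y3 and 4y5, and in 3 cells of other sets. Of the regions that hold a PU.1 motif, the one listed in the largest number of set 4 cells lies in intergenic sequence at chr9:65535325-65535474 (7 cells of 4a8, 4a12, 4y1 and 4y5, and 18 cells of other sets). All are given on the plus strand, with motif letters in capitals, read on either strand. Capitals mark 2 GC boxes and 1 CCAAT box in the region of Hdac6, and 4 GC boxes, some overlapping, in that of Acsl1. They mark 1 CCAAT box in the region of Nifk and only the PU.1 motif in the last region.
Hdac6: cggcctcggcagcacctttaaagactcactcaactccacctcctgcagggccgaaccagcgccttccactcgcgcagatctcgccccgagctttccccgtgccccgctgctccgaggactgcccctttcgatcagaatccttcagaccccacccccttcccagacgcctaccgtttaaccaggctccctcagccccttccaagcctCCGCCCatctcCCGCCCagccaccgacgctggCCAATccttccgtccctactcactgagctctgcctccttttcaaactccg
Acsl1: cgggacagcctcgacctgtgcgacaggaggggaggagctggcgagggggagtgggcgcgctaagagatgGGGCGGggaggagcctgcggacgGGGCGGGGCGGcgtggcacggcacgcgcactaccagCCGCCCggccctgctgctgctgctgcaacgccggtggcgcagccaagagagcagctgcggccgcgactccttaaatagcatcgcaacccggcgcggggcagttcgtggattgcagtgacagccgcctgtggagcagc
Nifk: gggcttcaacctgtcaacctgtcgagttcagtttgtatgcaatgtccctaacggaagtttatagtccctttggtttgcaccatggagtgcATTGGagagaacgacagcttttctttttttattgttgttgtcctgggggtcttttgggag
PU.1 motif region: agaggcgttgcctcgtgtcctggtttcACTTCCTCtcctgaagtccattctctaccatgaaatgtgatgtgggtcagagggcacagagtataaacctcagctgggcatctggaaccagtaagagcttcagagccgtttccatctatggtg

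Sisters were compared with cells of other divisions, to ask whether daughters of 1 division share more regions than unrelated cells of the set. The sister held 7.93%, 4.33%, 10.8%, 5.22% and 2.21% of the shorter list at the same start and end in 4a6, 4a8, 4a10, 4a11 and 4a12, and 48.1%, 5.55%, 15.7% and 7.74% in 4y1, 4y2, 4y3 and 4y5. Over the 9 divisions this was 12% ± 14.1 for sisters and 12.3% ± 9.24 for cells of other divisions of the set, a difference of -0.334 points (two-sided exact sign permutation p = 0.883), with sisters higher in 4 of 9 divisions. The cells of other divisions included those of 4y1, whose longer lists offer more places to match. Without 4y1 the difference was 1.81 (exact p = 0.336). Aged sisters shared 6.11% ± 3.35 and young sisters 19.3% ± 19.7 (exact permutation p = 0.0714). The young mean rests on 4y1 with its 48.1%, and the other 3 young divisions, at 5.55% to 15.7%, overlapped the aged ones.

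With both cells of 4y1 left out as partners, the sister was above the median of the other cells for 14 of the 16 remaining cells, all but the daughters of 4a12, yet single cells of other divisions were often above the sister. The best of these cells in other divisions, again without 4y1 and a choice that favours them over a single sister, was above the sister for 15 of these 16 cells and had the same daughter letter for 14. Daughters A of 4a8 and 4a12 shared 33.3% of the shorter list, whereas the sisters of 4a12 shared 2.21%, and daughters B of these divisions shared 23.3%. Among these best partners 3 were of the other age, as daughter A of young 4y5 shared 24.9% with daughter A of aged 4a12. With 4y1 counted as a partner, each of the 10 aged cells shared most, among cells of set 4, with a daughter of this young division (36.2% to 51.6%). So did the shallow young cells (24.3% to 36.2%) except daughter B of 4y2 (9.97%). These shares are of the shorter list, and the daughters of 4y1 had the longest lists of the set (178771 and 182906 regions). A longer list offers more places to match. High sharing with 4y1 and the length of its lists therefore cannot be told apart. Cells of set 3 could share more, as daughter B of 4a10 shared 61.8% with daughter B of 3a4. Divisions were thus not independent in what they listed, and the permutation tests over divisions, above and below, take them as independent. The cause of the sharing was not tested, nor whether a shared region belongs to each cell that lists it, and this bears on every region, gene and motif value per division below.

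**Figure D2:**
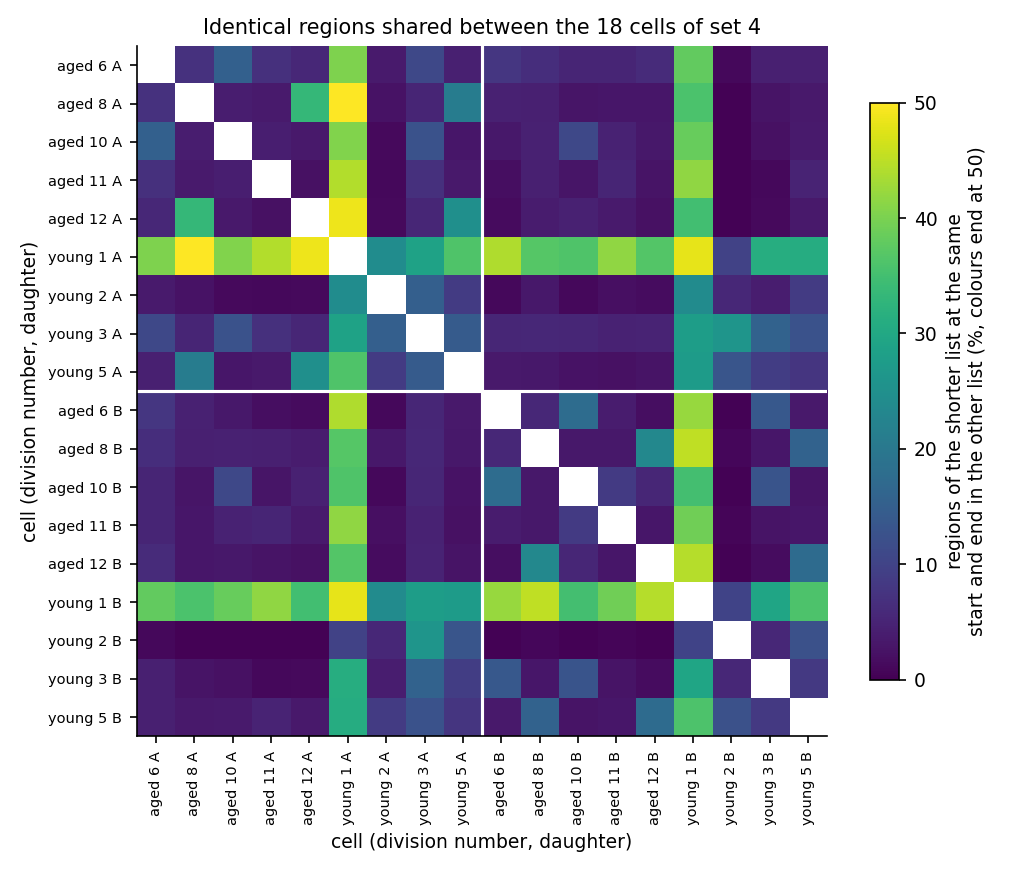
Percent of the regions of the shorter list found with the same start and end in the other list, for each pair of the 18 cells of set 4 (rows and columns are cells by age, division number and daughter, with daughters A first). The band of young 1 is bright against most cells but not against young 2 B (9.93% and 9.97%). Pairs such as aged 8 A with aged 12 A (33.3%) stand above the sisters of all divisions but young 1 (48.1%).

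Annotation classes were compared to ask where accessible regions of aged and young daughters lie. The TSS class, from 1000 bp before to 100 bp after a transcript start, took 7.80%, 13.2%, 8.34%, 4.62% and 14.1% of the regions in 4a6, 4a8, 4a10, 4a11 and 4a12. It took 5.96%, 16.7%, 12.1% and 14.4% in 4y1, 4y2, 4y3 and 4y5. The lowest values were those of 4a11 and 4y1, and the ages overlapped. The class covers 1.19% of the genome. The mean was 9.62% ± 3.97 in aged (SD, n = 5) and 12.3% ± 4.64 in young divisions (SD, n = 4), a difference of -2.68 points (two-sided exact permutation p = 0.365, adjusted p over the 4 classes 0.487). Without 4y1 the young mean was 14.4% ± 2.34 and the difference -4.79 (exact p = 0.125, adjusted 0.25).

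Intergenic sequence, which covers 60% of the genome, took 44.1%, 40.7%, 43.4%, 50.4% and 40.5% of the regions of 4a6, 4a8, 4a10, 4a11 and 4a12, and 46.8%, 35.5%, 39.8% and 38.4% of those of 4y1, 4y2, 4y3 and 4y5. Aged divisions had 43.8% ± 4.02 and young divisions 40.1% ± 4.78 (exact permutation p = 0.254, adjusted 0.487). Without 4y1 the young mean was 37.9% ± 2.18, all 5 aged divisions lay above the 3 young ones, and the difference of 5.95 points had an exact p of 0.0357, which did not pass the adjustment (0.143). Introns took 40.4% ± 1.12 in aged and 41.4% ± 0.563 in young divisions (exact permutation p = 0.159), and exons 6.17% ± 0.694 and 6.22% ± 0.694 (exact permutation p = 0.857). Without 4y1 these differences were -0.777 and -0.376 (exact permutation p = 0.304 and 0.464).

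**Figure D3:**
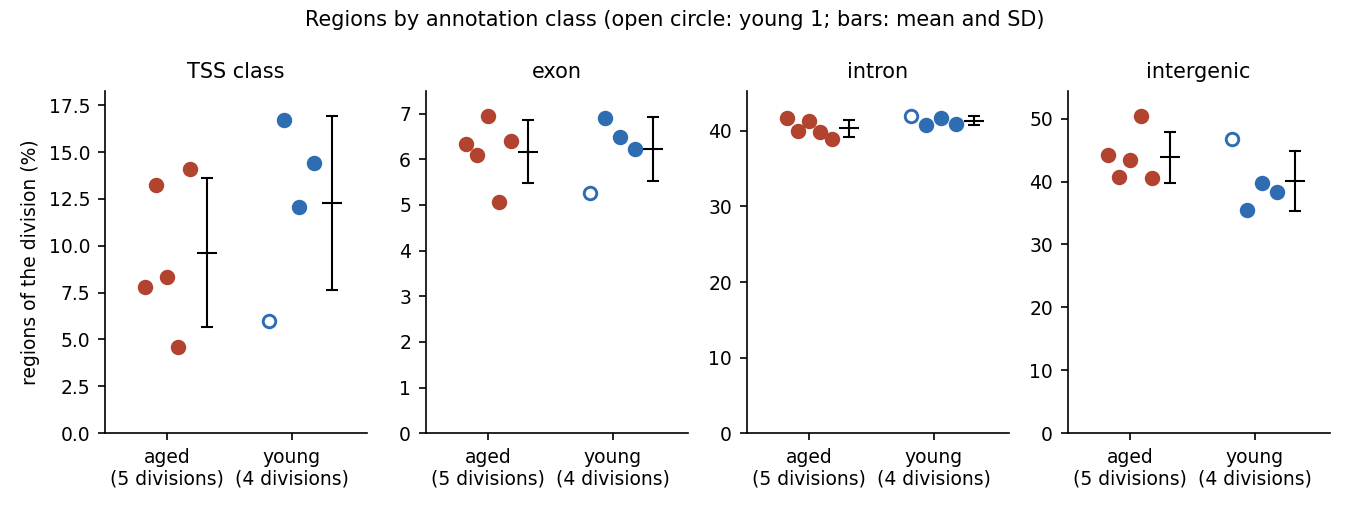
Percent of the regions of each division in the TSS class, exons, introns and intergenic sequence (1 point per division, open circle for young 1, bars for mean and SD of 5 aged and 4 young divisions). Intergenic shares of the aged divisions lie above those of the young ones other than young 1.

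When only regions at a place listed in no other division were kept, an alternative chosen after the sharing had been seen, 1167 to 3541 regions were left per aged division and 22314, 2889, 6898 and 5600 in 4y1, 4y2, 4y3 and 4y5. The TSS class then took 18.7%, 25.8%, 15.9%, 9.88% and 25.4% in 4a6, 4a8, 4a10, 4a11 and 4a12 and 12.5%, 23.4%, 22.5% and 25.8% in 4y1, 4y2, 4y3 and 4y5, which is above the share among all listed regions in each of the 9. The mean was 19.1% ± 6.72 in aged and 21.1% ± 5.87 in young divisions (exact permutation p = 0.643), and 23.9% ± 1.75 in young divisions without 4y1 (difference -4.75, exact permutation p = 0.304). Intergenic sequence took 35.7% ± 4.00 and 32.4% ± 5.62 of these regions (exact permutation p = 0.333), and 29.6% ± 1.00 in the young divisions without 4y1 (exact p = 0.0357, adjusted 0.143).

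**Figure D4:**
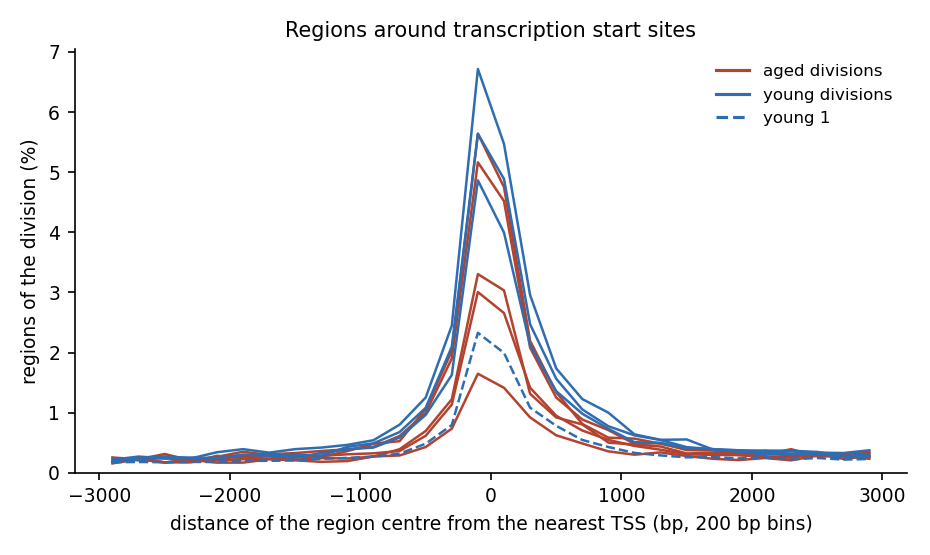
Percent of the regions of each set 4 division by distance of the region centre from the nearest TSS, in bins of 200 bp (1 line per division). All 9 lines peak at the TSS, and the lines of aged 11 and young 1 peak lowest.

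Set 3, which was sequenced from the same kinds of cells and is deeper, was used to ask whether the age difference depends on the set. In set 3 the TSS class took 6.86% ± 1.42 in 5 aged and 6.35% ± 1.23 in 8 young divisions, an age difference of 0.513 points against -2.68 in set 4. The difference between these of -3.19 did not pass the test (permutation of ages within sets, p = 0.291), nor without 4y1 (-5.30, permutation p = 0.0791). Young divisions of set 4 were 5.95 points above those of set 3 (two-sided exact permutation p = 0.0101; 8.06 points without 4y1, exact p = 0.00606), and aged ones 2.75 points (exact p = 0.23). The deep 4y1 had 5.96%, near the young mean of set 3, but the shallow aged division 4a11 was also low (4.62%). For the share of all regions that reached a pileup of 2 or more, the age difference was 3.19 points in set 4 and 0.517 in set 3 (permutation p = 0.453 for the difference between them, 0.763 without 4y1). Aged divisions of set 4 were 6.14 points above aged divisions of set 3 in this share (exact p = 0.0476). Young divisions of set 4 were 3.47 points above young divisions of set 3 (exact p = 0.133), and 5.09 points without 4y1 (exact p = 0.0485). Since the sets differ in depth, set and depth cannot be told apart in these comparisons between sets.

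Pileup over all listed regions was almost the same at both ages. Summed over regions it was 14330, 15437, 14735, 15771 and 15436 per 10000 regions in 4a6, 4a8, 4a10, 4a11 and 4a12 and 15477, 15036, 14775 and 15287 in 4y1, 4y2, 4y3 and 4y5. The means were 15142 ± 590.3 and 15144 ± 305.3 (SD, n = 5 and 4), a difference of -1.81 (exact permutation p = 0.976). A pileup of 2 or more was reached by 48.7% ± 4.90 of the regions in aged and 45.5% ± 3.86 in young divisions (exact permutation p = 0.325). Without 4y1 the differences were 109.4 in pileup and 1.57 points in this share (exact permutation p = 0.786 and 0.607). Among regions at a place of no other division, pileup was 15717 per 10000 regions in aged and 16928 in young divisions (difference -1211, exact permutation p = 0.238), and the difference was -378.6 without 4y1 (exact permutation p = 0.571). Because pileup in a single cell starts at 1 and most regions hold 1 or 2 insertions, these values have little room to vary.

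The X chromosome held 3.45%, 3.39%, 3.29%, 4.41% and 3.4% of the regions of 4a6, 4a8, 4a10, 4a11 and 4a12, and 3.88%, 2.62%, 3.03% and 3.07% of those of 4y1, 4y2, 4y3 and 4y5. The means were 3.59% ± 0.462 and 3.15% ± 0.531 (exact permutation p = 0.254). Division 4y1 lay among the aged divisions, and without it all 5 aged divisions were above the 3 young ones, by 0.683 points on average (exact permutation p = 0.0179, the smallest possible). Among regions at a place of no other division the difference without 4y1 was 0.378 (exact permutation p = 0.375). In the deeper set 3 the ages overlapped, with 3.45% to 3.94% in aged and 3.54% to 4.30% in young divisions. Chromosome Y had 12 regions in 4y1 and 1 each in 4y3 and 4y5. None was listed in the aged divisions or in 4y2, where 3 counts would be 0.00686% to 0.0194% of the regions, a limit that covers counting error only.

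Genes were counted by a TSS within 1 kb of a region. Of 26180 RefSeq genes, 15389 had such a region in at least 1 of the 18 cells and 12563 in the 16 cells outside 4y1. Aged divisions had 3725, 6053, 1784, 1560 and 3208 genes in 4a6, 4a8, 4a10, 4a11 and 4a12, and young divisions 14120, 3191, 6394 and 6703 in 4y1, 4y2, 4y3 and 4y5. Per 10000 regions these were 1184 ± 391.4 genes in aged and 1323 ± 692.7 in young divisions (exact permutation p = 0.722), and 1634 ± 374.3 in young divisions without 4y1 (exact permutation p = 0.214). The ratio falls with depth, to 390.4 in 4y1, so the number expected among 15482 regions was also computed. It was 1889, 2878, 1781, 1117 and 2788 in 4a6, 4a8, 4a10, 4a11 and 4a12, and 1572, 3191, 2795 and 3175 in 4y1, 4y2, 4y3 and 4y5. The aged mean was 2091 ± 740.0 and the young mean 2683 ± 763.3 (exact permutation p = 0.27). Without 4y1 the young mean was 3054 ± 224.3, a difference of -963.3 genes (exact permutation p = 0.0536), with 4a8 above the lowest young division.

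No gene had a region in all 18 cells, and 16 genes had one in all 9 divisions. The genes with a region in most cells were Gt(ROSA)26Sor and Pgk1 (17 cells each), Birc2 (16), and Sertad2, Klf13 and Marcksl1 (14 each). With 13 cells there were 9 genes, of which Kpnb1, Fbrs, Mex3c and Bmf, those with the highest mean pileup, are described to make 10. Gt(ROSA)26Sor is a long noncoding RNA gene that is active in most tissues, and Pgk1 encodes a glycolytic kinase. The pileup near the TSS of Gt(ROSA)26Sor was 7.91, 15.3, 27.7, 12.7 and 10.1 per 10000 regions in 4a6, 4a8, 4a10, 4a11 and 4a12, and 11, 11.6, 10.2 and 7.05 in 4y1, 4y2, 4y3 and 4y5. Division 4a10 was highest and the ages overlapped (14.8 ± 7.75 and 9.98 ± 2.04, and 9.64 ± 2.35 in young divisions without 4y1). Pgk1 had 4.91, 9.60, 3.87, 4.25 and 7.44 in the aged divisions and 4.81, 9.04, 4.69 and 2.64 in the young ones, in the same order, which overlapped as well (6.01 ± 2.44 and 5.30 ± 2.69, and 5.46 ± 3.27 without 4y1).

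The other 8 genes of this group were at lower levels, with mean pileups of 0.955 to 2.23 per 10000 regions in aged and 0.610 to 1.55 in young divisions. Birc2, an inhibitor of apoptosis, had 1.52 in aged and 1.55 in young divisions (1.94 without 4y1). Bmf, which promotes apoptosis, had 1.52 and 0.610 (0.656 without 4y1). Sertad2, a transcriptional coregulator, had 2.23 and 1.51 (1.66 without 4y1), and Klf13, a zinc finger transcription factor, 1.37 and 0.964 (1.01 without 4y1). Kpnb1, the importin that carries proteins into the nucleus, had 1.45 and 1.24, but the young mean without 4y1 was 1.52 and so above the aged mean. Fbrs likewise had 1.21 in aged and 1.12 in young divisions, and 1.37 in the young ones without 4y1. Marcksl1 and Mex3c had lower mean pileups in aged divisions, with 0.978 against 1.43 (1.81 without 4y1) and 0.955 against 1.32 (1.58 without 4y1). Fitted on numbers of regions by limma, the log2 ratio of Marcksl1 lay the other way (0.13), and that of Mex3c was -0.191. In limma none of the 10 genes passed (the adjusted p is given for all genes below), and each of the 9 divisions had a region at Gt(ROSA)26Sor, Pgk1, Sertad2 and Fbrs.

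The promoters of Sertad2 and Klf13 are shown as examples, picked because these genes had regions in 14 of 18 cells each and hold several of the motifs sought. Both are from RefSeq (GRCm38), from 250 bases before to 50 after the gene's start and on the gene's strand, with GC boxes and CCAAT boxes in capitals on either strand, some of them overlapping. Of 32851 RefSeq promoters of this length, 35.7% hold a GC box and 37.4% a CCAAT box. The promoter table held 31 of the 42 genes chosen by the rules for naming genes. Sertad2 lies at chr11:20542916-20543215 (plus strand) with 5 GC boxes and 2 CCAAT boxes, and Klf13 at chr7:63938866-63939165 (minus strand) with 3 and 2. A match describes letters and not binding.
Sertad2: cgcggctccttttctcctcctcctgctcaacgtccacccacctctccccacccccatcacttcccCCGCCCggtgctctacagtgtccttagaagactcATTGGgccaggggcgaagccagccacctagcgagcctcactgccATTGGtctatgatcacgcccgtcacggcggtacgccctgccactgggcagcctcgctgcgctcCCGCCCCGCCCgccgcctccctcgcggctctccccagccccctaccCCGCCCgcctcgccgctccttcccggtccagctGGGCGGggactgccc
Klf13: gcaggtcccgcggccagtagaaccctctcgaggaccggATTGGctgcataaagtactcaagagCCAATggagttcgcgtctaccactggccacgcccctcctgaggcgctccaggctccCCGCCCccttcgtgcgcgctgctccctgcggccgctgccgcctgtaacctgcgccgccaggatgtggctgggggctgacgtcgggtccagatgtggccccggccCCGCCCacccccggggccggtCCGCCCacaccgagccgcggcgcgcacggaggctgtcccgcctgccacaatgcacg

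Merging overlapping regions of the 18 cells gave 300453 regions, of which 133082 were seen in 1 cell and 2 in all 18. The 5 seen in most cells had pileups that overlapped between ages. The first lies in an intron of Gt(ROSA)26Sor (chr6:113075961-113076397, 18 cells), with 15.4 ± 7.15 per 10000 regions in aged and 9.98 ± 2.04 in young divisions. The second lies within the long noncoding RNA gene Gm36876 (chr11:109011550-109012186, 18 cells), with 4.87 ± 1.42 and 3.63 ± 0.517. The third and the fifth lie at the 18S ribosomal RNA pseudogene Rn18s-rs5 (chr17:39843072-39846740, 17 cells, and chr17:39847511-39848785, 14 cells), a sequence whose like is repeated in the genome. They had 26.7 ± 9.91 and 8.38 ± 4.51 in aged and 25.5 ± 16.3 and 11.1 ± 6.98 in young divisions. Division 4y1 was highest at both, with 49.4 and 18.5, and without it the young means were 17.5 ± 4.01 and 8.69 ± 6.08. The fourth is the promoter of Pgk1 (chrX:106186650-106186882, 17 cells), given above.

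To ask which genes differ with age, the number of regions within 1 kb of each gene's TSS was fitted with limma (voom weights, library size of all regions of the division) for the 5572 genes with a region in at least 4 of the 9 divisions. No gene passed an adjusted p of 0.05 (0% of those tested), and the smallest adjusted p was 0.807. At an unadjusted p of 0.05 by limma, 223 genes (4.00%) were higher and 41 (0.736%) lower in aged divisions. By limma-trend none passed either, and 190 genes were higher and 2 lower at an unadjusted p of 0.05. These counts moved with single divisions, to 423 higher and 0 lower without 4y2, 102 and 46 without 4a10 and 75 and 5 without 4y3. Without 4y1, of 3245 genes tested again none passed, and the numbers turned to 63 (1.94%) higher and 128 (3.94%) lower. With the library size taken as regions near a TSS, 92 genes (1.65%) passed, all higher in aged divisions, but the median log2 ratio of all genes tested also moved from 0.23 to 0.73. Using only regions at a place of no other division, 48 of 428 genes (11.2%) passed, all higher in aged divisions, with a median of 1.17. In both alternatives the list of genes that passed lies on top of a shift of all genes tested.

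The genes with the smallest p rested on few regions, at most 3 in a division for Acsl1 and at most 8 for Ubtf. Acsl1 had 1, 2, 3, 3 and 3 regions in 4a6, 4a8, 4a10, 4a11 and 4a12, 2 in the deep 4y1 and 0 in 4y2, 4y3 and 4y5 (log2 ratio 3.07 ± 0.81, SE, limma adjusted p = 0.807). It had the smallest p of all genes tested, and its 14 regions lay at 10 places. The microRNA genes Mir141 and Mir200c, neighbours counted through the same regions, had 2, 2, 2, 1 and 1 regions in the aged divisions in that order, 2 in 4y1 and 0 in the other young ones (log2 ratio 2.61 ± 0.79, limma adjusted p = 0.937). Tle6, of the Groucho family of corepressors, and Ccdc9 had regions in 4 aged divisions and in 4y1 (log2 ratios 2.50 and 2.41). These genes, like Acsl1, Mir141 and Mir200c, passed the filter of 4 divisions through the aged divisions, where they are high, so their ratios are a description only. Neither had a region in 4a6.

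The genes at the other end had regions in all 4 young divisions, which for a gene without a region in aged divisions is what the filter of 4 divisions requires. Adgra2, an adhesion receptor, Dpp4, a peptidase of the cell surface, Nfatc1, a transcription factor, and Nifk had none in any aged division. Their log2 ratios were -1.99, -2.0, -1.94 and -1.87 (limma adjusted p = 0.937 each), and since only the young divisions brought these genes past the filter, their direction was fixed by it. Ubtf, a factor of ribosomal RNA transcription, had a region in 1 aged division, 4a8, and a log2 ratio of -1.87. Nifk had 12 regions at 5 places and Dpp4 15 regions at 6 places, and 11 and 14 of these were listed at the same place in another division. With so few insertions a gene without a region cannot be told from one that was not sampled.

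Gene lists were described beside all genes. Of 26 stem cell genes, 21 had a region in any cell (80.8%, against 58.8% of all genes) and 18 outside 4y1 (69.2% against 48%). Procr, Slamf1, Hoxa9, Gfi1 and Tek had none. The list had a region at 23.1%, 38.5%, 3.85%, 7.69% and 23.1% of its members in 4a6, 4a8, 4a10, 4a11 and 4a12 and at 80.8%, 34.6%, 53.8% and 46.2% in 4y1, 4y2, 4y3 and 4y5. The corresponding shares of all genes were 14.2%, 23.1%, 6.81%, 5.96% and 12.3% and 53.9%, 12.2%, 24.4% and 25.6%. Among divisions with 15482 to 18807 regions, 4y2 thus had 9 members, 4a10 had 1 and 4a12 had 6. Of the 12 members tested by limma, 5 were higher and 7 lower in aged divisions and none passed, with a median log2 ratio of -0.13 against 0.23 for all genes, of which 3321 of 5572 (59.6%) were higher in aged divisions. Without 4y1 all 7 members tested were lower (median -0.73), as were most of all genes (1321 of 3245 higher, median -0.15). Ikzf1 and Gata2, transcription factors of blood, had a region in 11 cells each, and Runx1 and Spi1, which encodes PU.1, in 9. Ikzf1 had mean pileups of 0.854 per 10000 regions in aged and 1.02 in young divisions (1.15 without 4y1). Runx1 had 0.778 and 0.719, and the young mean without 4y1, 0.793, was above the aged one.

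Among single genes of cell polarity, Arhgef2 had a region in 9 cells, the fate determinant Numb in 8, Hdac6 in 7 and Rac2 in 6. All 7 regions of Hdac6 were at the place shown above. Cdc42 had 3 regions, in both daughters of 4y1 and in 4y3, and none in any aged division. Wnt5a, a secreted ligand that activates Cdc42 in stem cells, had regions in 1 cell, a daughter of 4y1. At this depth neither gene can be compared between ages.

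Of 23 cell cycle genes 21 had a region (91.3%, against 58.8% of all genes), and Ccnd1 and Top2a had none. The replication helicase genes Mcm7, Mcm6 and Mcm4 had regions in 10 cells each. Mcm7 had pileups of 0.546, 0.914, 1.29, 0 and 0 per 10000 regions in 4a6, 4a8, 4a10, 4a11 and 4a12 and 0.359, 3.88, 1.07 and 1.76 in 4y1, 4y2, 4y3 and 4y5, with a log2 ratio of -0.45. E2f1, which drives entry into S phase, had a log2 ratio of 0.72. Of 12 members tested by limma, 8 were higher in aged divisions, near the 59.6% of all genes, and none passed (median 0.42). Without 4y1 it was 5 of 7 (median 0.04), against 1321 of 3245 for all genes (median -0.15).

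Of 13 glycolysis genes 11 had a region (84.6%, against 58.8% of all genes), and 8 had one in 5 or more divisions (61.5%, against 12.3%). Besides Pgk1 these included Eno1 and Aldoa (9 cells each) and Hk1 (8 cells), while Tpi1 and Pgam1 had none. The median log2 ratio of the 9 members tested was 0.13, and -0.37 for 8 members without 4y1, against 0.23 and -0.15 for all genes. Of 85 ribosomal protein genes 79 had a region (92.9%, against 58.8% of all genes), led by Rpl36al in 10 cells and followed by Rpl15, Rpl26 and Rpl37 in 9. Of 31 tested, 21 were higher and 10 lower in aged divisions, with a median of 0.59 (0.23 for all genes) and none passing in limma. Without 4y1 it was 8 of 15, with a median of 0.06, against 1321 of 3245 and -0.15 for all genes. Among 12 genes known to rise in old HSCs 7 had a region (58.3%, against 58.8% of all genes), while Clu, Vwf, Nupr1, Sbspon and Osmr had no region in any cell. Egr1, a transcription factor of quiescent HSCs, had a region in 7 cells and was the only member with a region in 5 divisions. No member of the list had a region in 4a6, 4a10, 4y2 or 4y3, where 14.2%, 6.81%, 12.2% and 24.4% of all genes did. In 4a8, 4a11, 4a12, 4y1 and 4y5 it was 2, 2, 3, 7 and 4 members. These are 16.7%, 16.7%, 25%, 58.3% and 33.3%, against 23.1%, 5.96%, 12.3%, 53.9% and 25.6% of all genes. The 2 members tested by limma were higher in aged divisions and neither passed (median log2 ratio 0.905).

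Markers of blood and other cell types were used to check the label of the cells. All 8 genes of the leukocyte list had a region in some cell, and 7 of 8 did outside 4y1, without Coro1a. No leukocyte gene had a region in 4a10 or 4a11, where only 6.81% and 5.96% of all genes did, so 0 of 8 is near that share. In 4a6, 4a8 and 4a12 it was 2, 5 and 3 genes (25%, 62.5% and 37.5%, against 14.2%, 23.1% and 12.3% of all genes). In 4y2, 4y3 and 4y5 it was 3, 5 and 4 (37.5%, 62.5% and 50%, against 12.2%, 24.4% and 25.6%). Of other blood lineages, 7 of 8 erythroid, 4 of 6 megakaryocyte, 3 of 10 myeloid and 5 of 10 lymphoid genes had a region, led by Tfrc, Pf4, Cebpa and Ebf1. The myeloid markers Mpo, Elane, Ctsg, Csf1r, Itgam, S100a8 and S100a9 had none in any cell. Genes of neurons (2 of 6), liver (2 of 6), muscle (3 of 6), epithelium (3 of 6) and stroma and endothelium (3 of 6) had a region as well, among them Apoa1 and Cdh1 in 4 cells each, Ckm and Pecam1 in 3 and Syt1 in 2, whereas Snap25, Alb, Myh7, Epcam and Cdh5 had none. These lists hold 6 to 10 genes, and no test was made of their shares against the 58.8% of all genes. In the shallow cells 1 neuron, 1 liver, 2 muscle, 3 epithelium and 1 stroma and endothelium marker had a region, of 6 in each list. The share of all genes with a region in these cells was 48%.

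Motifs were counted in the 150 bp around region centres on either strand, to compare the sequences behind the regions. The PU.1 motif, GAGGAAGT, was held by 1.4%, 1.85%, 1.36%, 1.14% and 1.65% of the regions of 4a6, 4a8, 4a10, 4a11 and 4a12 and by 1.46%, 2.41%, 1.97% and 2.13% of those of 4y1, 4y2, 4y3 and 4y5. Genome windows of the same length held it in 0.883%. The 3 shallow young divisions were above all aged divisions, and 4y1 lay within the aged range. The means were 1.48% ± 0.275 in aged and 1.99% ± 0.396 in young divisions, a difference of -0.513 points (exact permutation p = 0.0635, adjusted over 7 motifs 0.278). Without 4y1 it was -0.689 (exact permutation p = 0.0357, adjusted 0.0625), and among regions at a place of no other division it was -0.731 (exact permutation p = 0.0397 over all 9 divisions, adjusted 0.278). None of these passed the adjustment. In set 3 the ages overlapped, with 1.37% to 1.69% in aged and 1.35% to 1.62% in young divisions.

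The AP-1 motif, TGACTCA, was held by 3.09%, 3.50%, 3.51%, 3.09% and 3.49% of the regions of 4a6, 4a8, 4a10, 4a11 and 4a12 and by 3.18%, 4.46%, 3.86% and 3.80% of those of 4y1, 4y2, 4y3 and 4y5 (genome 2.32%). Again the shallow young divisions lay above all aged ones. The difference was -0.487 points (exact permutation p = 0.0794, adjusted 0.278), and -0.703 without 4y1 (exact permutation p = 0.0179, adjusted 0.0625). The E-box CACGTG had means of 2.44% in aged and 2.67% in young divisions (exact permutation p = 0.27), and without 4y1 the shallow young divisions were again all higher (difference -0.372, exact permutation p = 0.0357, adjusted 0.0625). The CCAAT box was the motif that went the other way, with 20.6% ± 0.677 in aged and 19.7% ± 0.861 in young divisions (exact permutation p = 0.143) and a difference of 1.22 points without 4y1 (exact permutation p = 0.0357, adjusted 0.0625). The genome share of 23.0% was above both. Among regions at a place of no other division and without 4y1, the ages overlapped for AP-1 (-0.531), the E-box (-0.611) and the CCAAT box (1.35). The exact permutation p values were 0.179, 0.143 and 0.125 (adjusted 0.3125 each). For PU.1 the ages did not overlap there (-0.925, exact permutation p = 0.0357, adjusted 0.25).

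The other motifs overlapped between ages. The GC box, GGGCGG, was held by 8.37% ± 2.96 of the regions in aged and 10.3% ± 3.34 in young divisions, against 1.48% of genome windows, the ETS motif CCGGAAGT by 0.515% ± 0.212 and 0.643% ± 0.217 against 0.0901%, and the Runx motif TGTGGTT by 3.79% ± 0.370 and 4.04% ± 0.216 against 3.52% (exact permutation p = 0.389, 0.397 and 0.246). GC content around region centres was 48.9% ± 1.68 in aged and 50.1% ± 1.6 in young divisions (exact permutation p = 0.325), and 41.8% in genome windows. Without 4y1 the GC difference was -1.92 points (exact permutation p = 0.0893), and the GC box, ETS and Runx motifs differed by -3.42, -0.224 and -0.333 points (adjusted exact permutation p = 0.196 each). Outside 4y1 the share of places listed in other divisions also differed between ages. Among regions at a place of no other division, GC box, ETS and Runx differed by -2.97, -0.273 and -0.382 points without 4y1. The ages overlapped for each (exact permutation p = 0.411, 0.268 and 0.464). Whether the sharing causes motif differences was not tested. Within the TSS class alone, the E-box and the GC box lay the other way, with 5.43% ± 0.517 and 45.1% ± 3.30 in aged and 5.08% ± 0.217 and 44.5% ± 1.58 in young divisions (adjusted exact permutation p = 0.578 and 0.77). Without 4y1 these differences were 0.313 and -0.215 points (adjusted exact permutation p = 0.75 and 0.929). PU.1 and AP-1 kept their direction within this class, with differences of -0.350 and -0.0759 points (adjusted exact permutation p = 0.25 and 0.583). Without 4y1 they were -0.419 and -0.0585, and the ages overlapped for both.

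**Figure D5:**
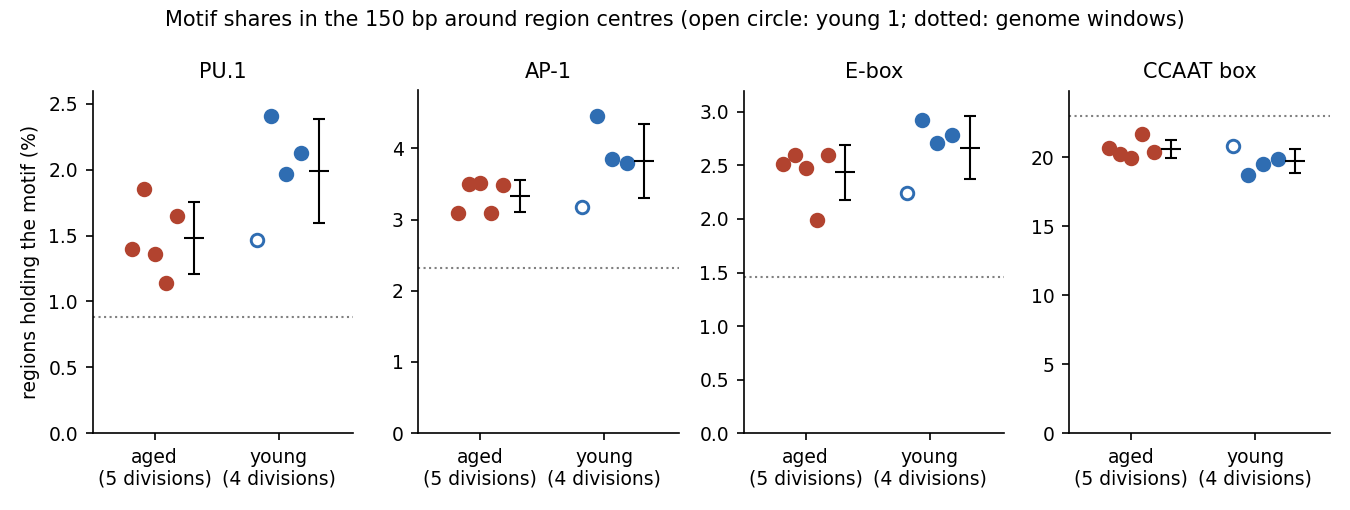
Percent of the regions of each division that hold the PU.1, AP-1, E-box or CCAAT motif in the 150 bp around the centre (1 point per division, open circle for young 1, bars for mean and SD, dotted line for genome windows of 150 bp). The 3 filled young points lie above all aged points for PU.1, AP-1 and E-box and below them for CCAAT.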

How the data were processed

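Each library is 1 daughter cell of an HSC division, assayed by scATAC-seq. The deposited lists give regions called by the authors with their signal as coverage (pileup at the summit) and their q value as -log10. According to the submitters' processing notes, reads were trimmed with cutadapt 1.9.1, aligned to mm10 with Bowtie2 and called with MACS2 (the sources used here give no other version). All listed regions on chromosomes 1 to 19, X and Y were used, and both daughters were pooled. Regions were classed at their centre by RefSeq (45756 transcripts, 26180 genes). Values per division were compared by two-sided exact permutation over divisions, not animals, with Benjamini-Hochberg adjustment over 4 classes or 7 motifs, and genes with limma. Genes were named for regions in most cells (10), smallest limma p (5 in each direction), and most cells within each list (up to 4, with a region in 5 or more divisions), with Cdc42 and Wnt5a added as regulators studied in the paper. Members and lists were chosen with earlier results of these data known. Alternatives were leaving out each division, other windows, filters, library sizes and pileup limits, and mapped reads per cell from the study's supplementary table, used only as the denominator in 1 alternative. After seeing the data, regions at places of no other division and each start and end counted once per cell were added. Scripts were tested on simulated data, where the limma fit also called unchanged genes when depth was as uneven as here. Limits for counts of 0 are 3 counts and cover counting error only. Tools were Python 3.11.15, numpy 2.4.6, pandas 2.3.3, scipy 1.17.1, matplotlib 3.10.9, R 4.3.3 and limma 3.58.1. The counts of 1 gene list are not reported here.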

Additional observations from a re-analysis of the deposited data

Results flagged for a closer look

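Of 40 groups of values compared for a division far from the rest of its age group, 3 held such a value, where chance alone would give about 1 in 20 groups. Young division 4y1 listed 361677 regions and was flagged because the gap to the next young division (46873) was 0.909 of the whole range of the young divisions. Aged division 4a11 had 4.41% of its regions on the X chromosome, while the other aged divisions had 3.29% to 3.45%, a gap of 0.854 of the aged range. Its daughters lay at opposite ends, with 2.01% of 2890 regions in daughter A, the lowest of the 18 cells, and 4.74% of 20649 in daughter B, the highest. The same division held the E-box in 1.99% of its regions, with 2.48% to 2.60% in the other aged divisions, a gap of 0.804 of the range. In addition, 291 regions of set 4 lay on unplaced sequence and were left out of all results, and were flagged as data not analysed here.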

How the results depend on the processing

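No paired analysis was possible, since the sources match no aged division to a young one and do not name the mice. The p values rest on 9 divisions from unnamed mice, on lists that share most of their places, and on few insertions per gene, and a p above 0.05 does not mean that ages are equal. The TSS class, intergenic sequence and the 7 motifs over all regions kept their directions. The intron difference of -0.988 points was -0.00342 with a TSS class of 1000 bp on both sides. The exon difference of -0.0586 points turned to 0.112 with the mean of the daughters, 0.141 for regions with a pileup of 2 or more, 0.319 with a TSS class of 1000 bp on both sides and 0.0821 for regions at a place of no other division, and ranged from -0.376 to 0.218 when a division was left out. Genes per 10000 regions turned to 31.6 more in aged divisions with a window of 5 kb (-450.2 to 106.7 leaving out a division). Pileup per 10000 regions turned to 6.86 without the highest 0.1% of pileup (-159.2 to 201.1 leaving out a division), and pileup per 10000 mapped reads differed by 374.9. The share with a pileup of 2 or more, 3.19 points, turned to -1.86 for a pileup of 3 or more, and to -3.53 for regions at a place of no other division (-4.47 also without 4y1), the last 2 chosen after seeing the data. A pileup of 3 or more was reached by 7.74% of the regions of 4y1. It was 1.28% to 2.84% in the other young and 0.483% to 3.28% in the aged divisions. Leaving out a division gave 0.234 to 0.683 points for the X chromosome, 3.64 to 7.80 for places listed in other divisions (p above 0.05 in 8 of 9 cases), -1.65 to 1.81 for sisters and -0.297 to 1.82 for the GC box in the TSS class. The number of genes passing in limma went from 0 to 92 with a library size of regions near a TSS and to 48 with regions at a place of no other division. The cause was not tested.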
